A study of Homo sapiens with 16 samples.

Results

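PC9 LeptoM cells carrying hairpin 1 against lipocalin-2 were compared with PC9 LeptoM cells carrying a control hairpin, across every gene row of the PC9 table with a mean of at least 10 over its 8 libraries. That left 15650 of 19454 genes, in 4 of the 16 libraries of the series: 2 labelled shLCN2_1 and 2 labelled shCTL. PC9 is a human lung adenocarcinoma cell line with an activating EGFR mutation, and LeptoM is the derivative selected for growth in the leptomeninges, the membranes that hold the cerebrospinal fluid. Both groups are LeptoM cells transduced with a lentivirus, and RNA was taken from cells in culture, lysed 2 days after seeding, so no host cell is part of these samples by design. The other 4 libraries of the table are LeptoM cells with a second hairpin, shLCN2_2, and parental PC9 cells with no hairpin. The breast cancer line MDA231 was measured in the same 4 groups and its table was normalized separately. The labels leave unsaid if the replicates of a group were grown apart. The p-values therefore rest on differences between libraries alone, and these may be technical. The labels do not say whether a group is 1 clone or a pool of transduced cells, and a single hairpin cannot separate loss of its target from its effects on other transcripts.

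Lipocalin-2, the product of LCN2, is a secreted protein that binds siderophores, the small molecules with which bacteria capture iron, and can carry iron into cells. It is an acute-phase product of epithelia and neutrophils, and its promoter is a classical target of NF-kB with IκBζ and C/EBP factors downstream of interleukin-1, interleukin-17 and lipopolysaccharide. A short hairpin RNA is processed into a small interfering RNA that directs cleavage of a matching transcript, can lower transcripts that match only its seed, and, as double-stranded RNA, can set off an interferon response. Interferon-stimulated genes respond to interferon-activated transcription factors through a promoter element, the ISRE, whose core is a pair of GAAA repeats with 2 bases of any kind between them.

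The interferon-stimulated genes share a known promoter element, and 3 of their promoters are printed here to show it. Each run is the 250 bases before the RefSeq transcription start in GRCh38.p14, 5′ to 3′ on the gene's strand, with every match to that core (GAAA, any 2 bases, GAAA) on either strand in capitals, overlapping matches joined. All matches shown lie on the other strand and so read TTTC, any 2 bases, TTTC. IFIT1 lies at chr10:89392373-89392622 on the plus strand, IFIT3 at chr10:89327747-89327996 on the plus strand and HERC5 at chr4:88456869-88457118 on the plus strand.
IFIT1: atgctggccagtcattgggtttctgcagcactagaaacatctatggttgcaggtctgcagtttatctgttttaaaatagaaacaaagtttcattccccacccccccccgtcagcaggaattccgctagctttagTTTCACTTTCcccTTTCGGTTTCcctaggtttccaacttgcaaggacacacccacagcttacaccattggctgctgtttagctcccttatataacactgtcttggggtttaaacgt
IFIT3: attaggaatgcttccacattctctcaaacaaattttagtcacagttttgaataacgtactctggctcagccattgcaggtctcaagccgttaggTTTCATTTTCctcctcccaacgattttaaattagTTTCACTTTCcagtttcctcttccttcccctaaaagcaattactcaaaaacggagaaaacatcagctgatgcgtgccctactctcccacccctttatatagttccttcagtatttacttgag
HERC5: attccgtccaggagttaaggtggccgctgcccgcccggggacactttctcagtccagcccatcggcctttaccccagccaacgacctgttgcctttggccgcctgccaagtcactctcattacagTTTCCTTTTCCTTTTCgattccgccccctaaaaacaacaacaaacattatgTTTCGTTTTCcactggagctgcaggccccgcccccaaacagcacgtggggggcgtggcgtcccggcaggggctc
Of 27305 RefSeq promoters of this length, 839 (3.07%) held the element, against 230 of 10116 (2.27%) for tested genes with a promoter entry and 18 of 28 (64.3%) for the interferon-stimulated genes with one. Among the 11 members with an entry that were called higher with hairpin 1, 5 held it. A match is a description of the letters only. The hairpins' own sequences are not used here.

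The 4 libraries held 36796098 to 47457769 gene reads each, and 3 reads, the limit that a count of 0 allows, corresponded to 2.41 to 3.52 on the deposited scale over the table's libraries. That scale is reads divided by a size factor per library, so a value is a level within 1 gene and is not divided by gene length. Intervals from reads cover counting error only. Both hairpin 1 libraries stood apart from the control libraries by the GC content of genes. Spearman's rho between a gene's GC content and a library's deviation from the gene means was -0.556 and -0.653 in the hairpin 1 libraries and 0.472 and 0.370 in the control libraries. Before any step, the median log2 difference between hairpin 1 and control fell from 0.25 in the fifth of genes lowest in GC to -0.95 in the fifth highest in GC, and rho between the difference and GC was -0.673. After a smooth trend on GC was subtracted from each library, the 5 medians lay between 0.001 and 0.038 and rho was 0.032. Because both hairpin 1 libraries carry the trend, a change that follows GC in the cells and one that arose in the libraries cannot be told apart. Fold changes below are log2 differences of value + 1 with the trend removed unless called "as deposited", and library values are always as deposited. The 2 hairpin 1 libraries also differed from each other more than the 2 control libraries did, with a chi-square per degree of freedom of 39.9 against 2.94. Of the libraries used only for the spread, parental replicate 2 stood apart, with reads that had no unique place equal to 42.4% of its gene reads against 18.1 to 20.6% elsewhere.

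LCN2 was reduced by hairpin 1 in both libraries. Its normalised read counts were 51004 and 49615 in the control libraries, 3575 and 7046 with hairpin 1, 21415 and 18861 with hairpin 2 and 21140 and 23248 in parental cells. Every hairpin 1 library lay below every other library of the table. The level left was 10.6% of control, 7.11% in replicate 1 and 14.0% in replicate 2, so the library labelled replicate 2 kept more of the target. The log2 fold change was -2.96 (SE 0.27, adjusted p = 0.00141) in limma, and -3.33 as deposited. Leaving out each of the 8 libraries in turn moved it between -3.48 and -2.45, with the call kept each time. Hairpin 2 left 40% of the control level, a log2 fold change of -1.34 (SE 0.27, adjusted p = 0.0119), and the difference between hairpin 1 and hairpin 2 was -1.61 (SE 0.27, adjusted p = 0.0044). In bulk RNA, fewer cells that express a gene and less RNA per cell cannot be told apart, here and for every gene below. In MDA231 LeptoM cells LCN2 had only 27 and 18 reads in control, 10 and 9 with hairpin 1, and 6 and 7 with hairpin 2, under the minimum for testing.

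With hairpin 1, 1803 genes were higher than control (11.5% of those tested) and 1819 were lower (11.6%), by limma with a Benjamini-Hochberg adjusted p under 0.05. Of these, 353 higher and 156 lower genes had an absolute log2 fold change of at least 1. As deposited, 2944 genes were called higher and 3966 lower. Calls made in the same direction with and without the GC step came to 965 higher (6.17%) and 1355 lower (8.66%), and in all of them the 2 groups did not overlap. Such separation was common. As deposited, 44.8% of all genes lay below both controls and 46.9% above both in hairpin 1 replicate 1, and 44.1% and 47.5% in replicate 2. The GC step turned 302 genes from called lower to called higher and none from higher to lower. The split of calls, 49.8% higher, moved with the processing. It was 17.3% higher (934 higher, 4454 lower) when each library's mean trend was added back, which changes the centring alone. With edgeR and a GC offset, which also changes the model, it was 68.4% (2630 higher, 1216 lower), and with length removed as well as GC it was 37.9% (1421 higher, 2332 lower). The number of calls fell with left-out libraries of the control and hairpin 2 groups. Without shCTL replicate 1 it was 398 higher and 400 lower, and without shCTL replicate 2 it was 403 and 447. Without shLCN2_2 replicate 1 it was 1163 and 1184, and without shLCN2_2 replicate 2 it was 1164 and 1182. Without shLCN2_1 replicate 1 there were 3152 higher and 2901 lower calls, and without shLCN2_1 replicate 2 there were 3480 and 3827. Of 162 genes named by the rule in the processing section, 67 were called with each of the 8 libraries left out in turn, among them 17 of the 24 largest changes. Of those other than LCN2, 89 lost the call when only the groups compared were fitted, 36 with a constant prior, 18 with the mean trend added back and 15 with edgeR and a GC offset. Leaving out a hairpin 1 library removed the spread between 2 unlike libraries and raised the number of calls. Those 2 of the 8 left-out fits were therefore the more lenient, here and below.

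The largest increases were in genes of low to moderate level in control cells. METTL7B, a membrane-bound methyltransferase, had 2.75 and 4.06 in control libraries, 66.1 and 43.0 with hairpin 1 and 28.9 and 32.9 with hairpin 2. It was low in both controls and higher in all 4 LCN2 hairpin libraries, with a log2 fold change of 3.93 (SE 0.35, adjusted p = 0.00134). Its reads were 3 and 4 against 63 and 39, a ratio of 16.2 (95% counting interval 7.60 to 41.4). FCGRT, the neonatal Fc receptor heavy chain that recycles IgG and albumin, stood at 12.8 and 17.3 in control, 53.5 and 52.9 with hairpin 1 and 49.0 and 53.7 with hairpin 2. Both hairpins lay above both controls, and the hairpin 1 fold change was 2.76 (SE 0.31, adjusted p = 0.00208), or 1.77 as deposited. CR2, the complement receptor CD21, gave 18.4 and 16.3 in control against 102 and 163 with hairpin 1, a fold change of 2.65 (SE 0.34, adjusted p = 0.00263). LGR6, a receptor for R-spondins that marks epithelial stem cells, rose from 29.4 and 24.4 to 109 and 87.0 with hairpin 1 and stood at 187 and 183 with hairpin 2. Its fold change was 2.49 (SE 0.28, adjusted p = 0.00194), and the 2 LCN2 hairpins lay on the same side of control.

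DISC1, a scaffold protein studied in neuronal development, read 43.1 and 57.9 in control, 214 and 337 with hairpin 1 and 224 and 224 with hairpin 2. The fold change was 2.41 (SE 0.23, adjusted p = 0.00158) for hairpin 1 and 2.18 (SE 0.23, adjusted p = 0.00135) for hairpin 2, and the difference between the hairpins was 0.24 (SE 0.23, adjusted p = 0.476). UNC13A, a priming factor of vesicle exocytosis, went from 58.7 and 73.2 to 256 and 291, a fold change of 2.51 (SE 0.37, adjusted p = 0.00404). ATP8B2, a phospholipid flippase, had 11.9 and 12.2 in control against 66.1 and 60.6 with hairpin 1, but 16.9 and 19.9 with hairpin 2. The hairpin 1 fold change was 2.49 (SE 0.23, adjusted p = 0.00138) and that of hairpin 2 was 0.57 (SE 0.23, adjusted p = 0.105), with a difference between the hairpins of 1.92 (SE 0.23, adjusted p = 0.00117). CALB1, the calcium buffer calbindin, was at 10.1 and 15.2 in control, 70.3 and 102 with hairpin 1 and 4.82 and 19.1 with hairpin 2, so only the hairpin 1 libraries were raised, and the difference between the hairpins was 2.67 (SE 0.59, adjusted p = 0.0128). CHST4, a sulfotransferase that builds L-selectin ligands, had 4 and 12 reads in control and 48 and 46 with hairpin 1, a ratio of 6.55 (95% counting interval 3.83 to 11.9). BPIFA1, the secreted airway protein SPLUNC1, stood at 9.18 and 7.11 in control against 22.0 and 79.3 with hairpin 1, where replicate 2 was the higher. GIMAP2, a GTPase of the immune-associated family, went from 16.5 and 13.2 to 146 and 60.6, with replicate 1 the higher. CCDC3, a secreted coiled-coil protein also among the 12, had a fold change of 2.41 (SE 0.50, adjusted p = 0.014). Of the 12, 7 were also called higher with hairpin 2, in a comparison that shares the control libraries and called 12.5% of all genes higher. Between the hairpins 6 differed, beside 32.3% of all genes, and that comparison reuses the hairpin 1 libraries by which the 12 were ranked. METTL7B, FCGRT, CR2, LGR6, DISC1, UNC13A, ATP8B2 and CHST4 kept the call with any 1 of the 8 libraries left out, CALB1, GIMAP2 and CCDC3 lost it without either shCTL library, and BPIFA1 lost it without any 1 shCTL or shLCN2_2 library.

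Of the 12 largest decreases, 10 were not called lower with hairpin 2, which called only 11.6% of all genes lower. MRPS24, a protein of the small mitochondrial ribosomal subunit, had 465 and 402 in control libraries, 31.5 and 45.2 with hairpin 1 and 425 and 425 with hairpin 2. Both hairpin 1 libraries were far below the other groups, with a fold change of -3.21 (SE 0.39, adjusted p = 0.00233). HIST3H2A, a histone H2A gene, had 119 and 114 in control, 11.5 and 12.1 with hairpin 1 and 144 and 160.2 with hairpin 2, a fold change of -2.67 (SE 0.27, adjusted p = 0.00163). RNASEK, an endoribonuclease associated with the vacuolar ATPase, went from 256 and 299.8 to 40.9 and 48.5, and stood at 323 and 353 with hairpin 2. The fold change was -2.11 (SE 0.27, adjusted p = 0.00262) and the difference from hairpin 2 was -2.35 (SE 0.27, adjusted p = 0.00106). C11orf83, an assembly factor of respiratory complex III, gave 1413 and 1387 in control against 317 and 251 with hairpin 1, a fold change of -1.98 (SE 0.19, adjusted p = 0.00148). SRXN1, the sulfiredoxin that repairs oxidised peroxiredoxins, was at 613 and 646 in control, 135 and 138 with hairpin 1 and 384 and 417 with hairpin 2. It was lower with both hairpins, at -2.03 (SE 0.20, adjusted p = 0.00157) and -0.64 (SE 0.20, adjusted p = 0.0495), with a difference between the hairpins of -1.39 (SE 0.20, adjusted p = 0.00217).

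H2AFJ, a replacement histone H2A, moved in opposite directions in the 2 hairpins. Its values were 2841 and 2856 in control, 1010 and 971 with hairpin 1 and 4327 and 4305 with hairpin 2, so the 3 groups did not overlap. The fold changes were -1.65 (SE 0.12, adjusted p = 0.00119) for hairpin 1 and 0.65 (SE 0.12, adjusted p = 0.00951) for hairpin 2. ATP6V0C, the proteolipid subunit of the vacuolar proton pump, fell from 1118 and 997 to 166 and 112, a fold change of -1.64 (SE 0.23, adjusted p = 0.00366) with the GC trend removed and -2.94 as deposited. COL4A2, a chain of basement-membrane collagen, had 1697 and 1631 in control, 388 and 541 with hairpin 1 and 1667 and 1761 with hairpin 2, a hairpin 1 fold change of -1.62 (SE 0.17, adjusted p = 0.00179). KMO, the kynurenine hydroxylase of tryptophan breakdown, fell from 289.9 and 326 to 78.7 and 163, and SPRR3, a precursor of the cornified envelope, from 3060 and 2686 to 512 and 1626. In both genes replicate 1 was the lower hairpin 1 library. FAM25A, also among the 12, had a fold change of -2.54 (SE 0.52, adjusted p = 0.0132). All 12 differed between the hairpins, beside 32.3% of all genes. That comparison reuses the hairpin 1 libraries by which the 12 were ranked, so the count is no separate support. With hairpin 2, 2 of them (LCN2 and SRXN1) were also called lower, and H2AFJ was called higher, beside 11.6% lower and 12.5% higher over all genes. HIST3H2A, H2AFJ and FAM25A have similar copies elsewhere in the genome, and MRPS24 and RNASEK share exons with the readthrough genes URGCP-MRPS24 and RNASEK-C17orf49, so the authors' counting could split or drop some of their reads. MRPS24, HIST3H2A, RNASEK, C11orf83, SRXN1, H2AFJ, ATP6V0C and COL4A2 kept the call with any 1 of the 8 libraries left out, KMO and FAM25A lost it without either shCTL library, and SPRR3 lost it without any 1 library of the other 3 groups.

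**Figure D1:**
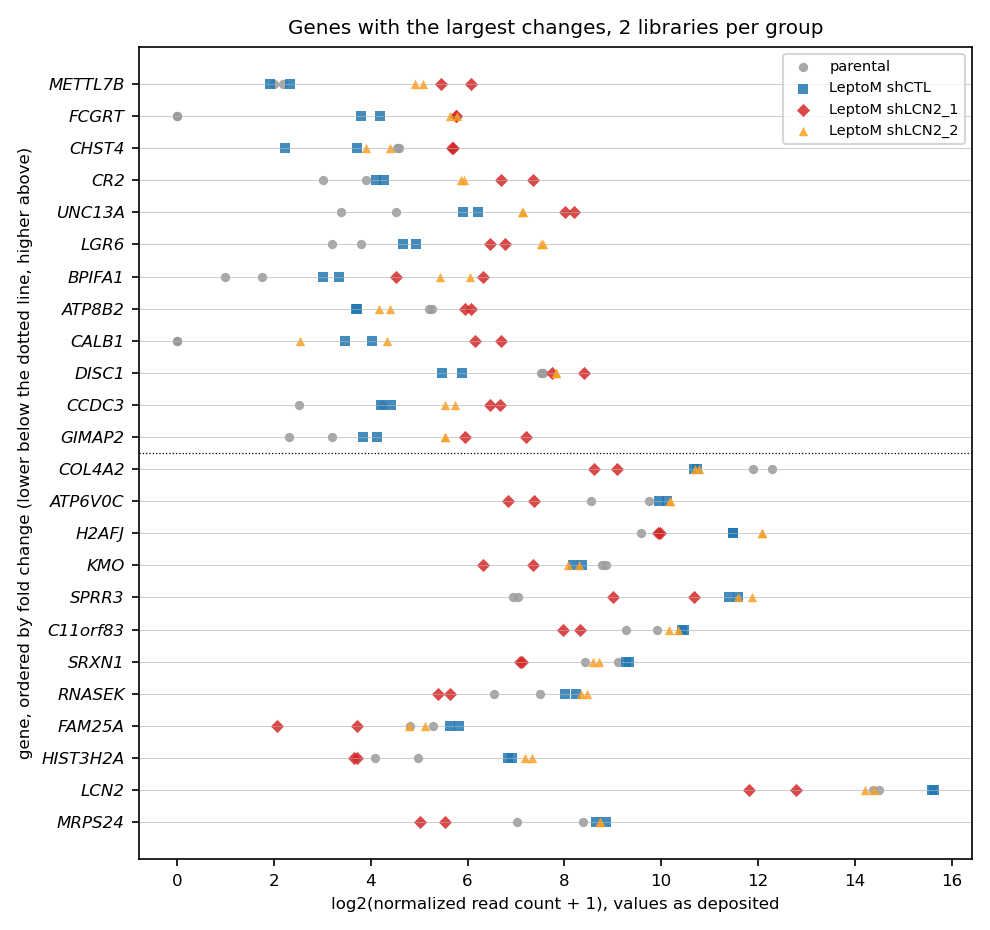
Log2 of normalised read count + 1, as deposited (horizontal axis), with 2 points per group for parental, control, hairpin 1 and hairpin 2 libraries, for the 12 genes with the largest decrease (below the dotted line) and the 12 with the largest increase (above it). Hairpin 1 and control points do not overlap in any row, which the choice of these genes required, and for MRPS24 the hairpin 2 points lie with control.

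The most abundant changed genes were sought among those called in the same direction with and without the GC step. The 8 with the highest mean level and an absolute log2 fold change of at least 1 all fell. Among them were LCN2, RPLP1, EPN1, ETFB, SELT, OLFML3 and DIO2. Of all genes called with that fold change, the condition on both analyses kept 218 of 353 higher and 155 of 156 lower ones, so it removed mostly increases. EPN1, an endocytic adaptor, had 12654 and 11759 in control against 3299 and 3068 with hairpin 1, a fold change of -1.56 (SE 0.16, adjusted p = 0.00163). ETFB, a subunit of the electron transfer flavoprotein that takes electrons from fatty acid oxidation, had 9525 and 9206 in control against 3902 and 3523 with hairpin 1, a fold change of -1.23 (SE 0.13, adjusted p = 0.00169). Neither overlapped with control, which the choice of these genes required, and neither was called with hairpin 2. SELT, a selenoprotein of the endoplasmic reticulum, read 6737 and 7008 in control against 3096 and 4723 with hairpin 1. DIO2, the deiodinase that activates thyroid hormone, was lower with both hairpins, at 13626 and 14298 in control, 6609 and 9370 with hairpin 1 and 6184 and 7084 with hairpin 2, with fold changes of -1.06 (SE 0.15, adjusted p = 0.00342) and -1.005 (SE 0.15, adjusted p = 0.00383). OLFML3, a secreted olfactomedin protein, gave -1.09 (SE 0.30, adjusted p = 0.0353). EPN1, ETFB, SELT, DIO2 and RPLP1 kept the call with any 1 of the 8 libraries left out, and OLFML3 lost it without any 1 library of the other 3 groups.

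Interferon-stimulated genes, the antiviral program whose promoters are printed above, were higher with hairpin 1 in 15 of 37 tested members and lower in 1, and 4 of the 41 listed were under the minimum. Their median log2 fold change was 0.39, against 0.02 over all genes tested, where 11.5% were called higher. OAS2, an enzyme that makes 2-5A in response to double-stranded RNA, had 8.26 and 5.08 in control libraries, 22.0 and 37.4 with hairpin 1 and 91.7 and 63.2 with hairpin 2. Its control libraries were the lowest of the 3 groups and its hairpin 2 libraries the highest, with hairpin 1 fold change 1.84 (SE 0.56, adjusted p = 0.04995). IFIT1, an RNA-binding inhibitor of viral translation, read 91.8 and 98.6 in control, 184 and 261 with hairpin 1 and 219 and 245 with hairpin 2, a fold change of 0.96 (SE 0.26, adjusted p = 0.035). IFIT3, its partner, read 178 and 204 in control against 349 and 296 with hairpin 1, a fold change of 0.54 (SE 0.13, adjusted p = 0.0246). HERC5, the ligase for ISG15, read 193 and 191 in control against 439 and 352 with hairpin 1, a fold change of 0.79 (SE 0.14, adjusted p = 0.00856). Hairpin 1 and control did not overlap in any of these 4 genes, nor in any other gene called with and without the GC step. UBE2L6, the conjugating enzyme of the same system, read 1305 and 1252 in control against 2060 and 1770 with hairpin 1, a fold change of 0.94 (SE 0.07, adjusted p = 0.00119).

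XAF1, a pro-apoptotic interferon target, had a fold change of 1.58 (SE 0.33, adjusted p = 0.0135), IFITM2, an inhibitor of viral entry, 1.35 (SE 0.31, adjusted p = 0.0196), and MX1, a dynamin-like antiviral GTPase, 0.88 (SE 0.20, adjusted p = 0.0181). The 1 member called lower was IFI35, at -0.31 (SE 0.08, adjusted p = 0.0229). IFITM3, another inhibitor of viral entry, was called higher with the GC trend removed, at 0.41 (SE 0.11, adjusted p = 0.0378), though it stood at -0.37 as deposited. ISG15, the ubiquitin-like modifier of the program, did not follow the others: its values were 379 and 367 in control against 131 and 88.1 with hairpin 1, -1.78 as deposited and -0.49 (SE 0.19, adjusted p = 0.105) with the GC trend removed. With hairpin 2, 25 of the 37 members were called higher and none lower, beside 12.5% and 11.6% over all genes, with a median of 0.56. In hairpin 1 against hairpin 2, 12 members were lower and 2 higher, beside 2591 and 2470 of all 15650 genes. The hairpin 1 and hairpin 2 comparisons share the same control libraries. The hairpin 1 count of higher members rested on few libraries. It fell with either shCTL library left out, as did the higher count over all genes. It was 2 when only the 2 groups compared were fitted, beside 423 of all 15650 genes called higher. With the mean trend added back it was 10, beside 934 of all genes. Called with and without the GC step were 12 higher and 1 lower, beside 6.17% and 8.66% over all genes. UBE2L6 kept the call with any 1 of the 8 libraries left out, OAS2 lost it without any 1 shCTL or shLCN2_2 library or shLCN2_1 replicate 2, IFIT1 and IFI35 lost it without any 1 shCTL or shLCN2_2 library, XAF1, MX1 and HERC5 lost it without either shCTL library, IFITM2 lost it without either shCTL library or shLCN2_1 replicate 1, IFIT3 lost it without either shCTL library or shLCN2_2 replicate 1, and IFITM3 lost it without any 1 library of the other 3 groups. IFIT3 (0.37) and IFITM3 (0.24) were not called with the mean trend added back. OAS2 (1.76) and IFITM3 (0.36) were not called with GC and length removed together.

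The NF-kB and IL-17 targets, cytokines and acute-phase genes of the kind to which LCN2 belongs, had 2 of 30 tested members called higher and 5 called lower (7 of the 37 listed were under the minimum), with a median of -0.51, beside 11.5% higher and 11.6% lower over all genes. LCN2 itself was not among the 37. The 2 hairpin 1 libraries diverged in this list. As deposited, all 30 members lay below both controls in replicate 1, while in replicate 2 there were 20 below both and 7 above both. Over all 15650 genes, 7010 (44.8%) lay below both and 7336 (46.9%) above both in replicate 1, and in replicate 2 there were 6901 (44.1%) below and 7432 (47.5%) above. Replicate 1 was the lower in 27 of 30 members, with a median log2 ratio of replicate 1 to replicate 2 of -1.24, against 0.03 over all genes, of which 7118 of 15650 were lower in replicate 1. CXCL1, a neutrophil-attracting chemokine, read 494 and 419 in control against 43.0 and 339 with hairpin 1. IL8, another chemokine of that family, read 2700 and 2592 in control against 370.3 and 2286 with hairpin 1. S100A8, a subunit of calprotectin, read 8450 and 8559 in control against 2105 and 14097 with hairpin 1. In each of these genes replicate 1 was several times lower than control, and replicate 2 was near control or, for S100A8, above it.

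TNFAIP3, the NF-kB feedback inhibitor A20, behaved in the same way, with 4134 and 4175 in control against 923 and 3598 with hairpin 1, as did the acute-phase gene SAA1, with 918 and 953 in control against 277 and 1914 with hairpin 1. PI3, the elastase inhibitor elafin, read 7765 and 7311 in control against 5727 and 19658 with hairpin 1, so its 2 hairpin 1 libraries lay on opposite sides of control. With replicate 1 as the only hairpin 1 library, 3 members were called higher and 25 lower, with a median of -1.19, beside 22.2% higher and 24.5% lower over all genes. With replicate 2 alone there were 8 higher and 9 lower, with a median of -0.01, beside 20.1% and 18.5%. In both fits the lone library is assumed to vary like the other groups. Replicate 1 is also the library with less LCN2 left, 7.11% against 14.0%, and whether the 2 are related was not tested.

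The members called lower in both analyses did fall in both libraries. IL6, the cytokine, read 86.2 and 91.5 in control, 29.4 and 40.8 with hairpin 1 and 20.9 and 22.5 with hairpin 2, and fell with both hairpins, at -1.52 (SE 0.21, adjusted p = 0.00346) and -1.92 (SE 0.21, adjusted p = 0.00144). IKBKE, a kinase upstream of IRF3 and NF-kB, read 1005 and 987 in control against 500.3 and 605 with hairpin 1, a fold change of -0.86 (SE 0.11, adjusted p = 0.00262). BIRC3, the ubiquitin ligase cIAP2, read 3138 and 2996 in control against 1927 and 2399 with hairpin 1, a fold change of -0.77 (SE 0.11, adjusted p = 0.0032). IRAK2, a kinase of the interleukin-1 receptor pathway, gave -1.23 (SE 0.36, adjusted p = 0.0451), and TNFAIP2 gave -0.40 (SE 0.06, adjusted p = 0.00437), or -1.29 as deposited. The 2 called higher, CEBPB and CEBPD, transcription factors with GC-rich transcripts, were below control as deposited, at -0.76 and -0.70, and above it with the GC trend removed, at 0.78 (SE 0.17, adjusted p = 0.0156) and 1.27 (SE 0.31, adjusted p = 0.0241). With hairpin 2 the list had 0 higher and 3 lower calls, beside 12.5% and 11.6% over all genes, and a median of -0.02. With either shCTL library left out, fewer members were called with hairpin 1, and fewer genes of the whole table. IL6, IKBKE and BIRC3 kept the call with any 1 of the 8 libraries left out, TNFAIP2 lost it without shCTL replicate 1, IRAK2 lost it without any 1 library of the other 3 groups, and CEBPB and CEBPD lost it without either shCTL library.

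**Figure D2:**
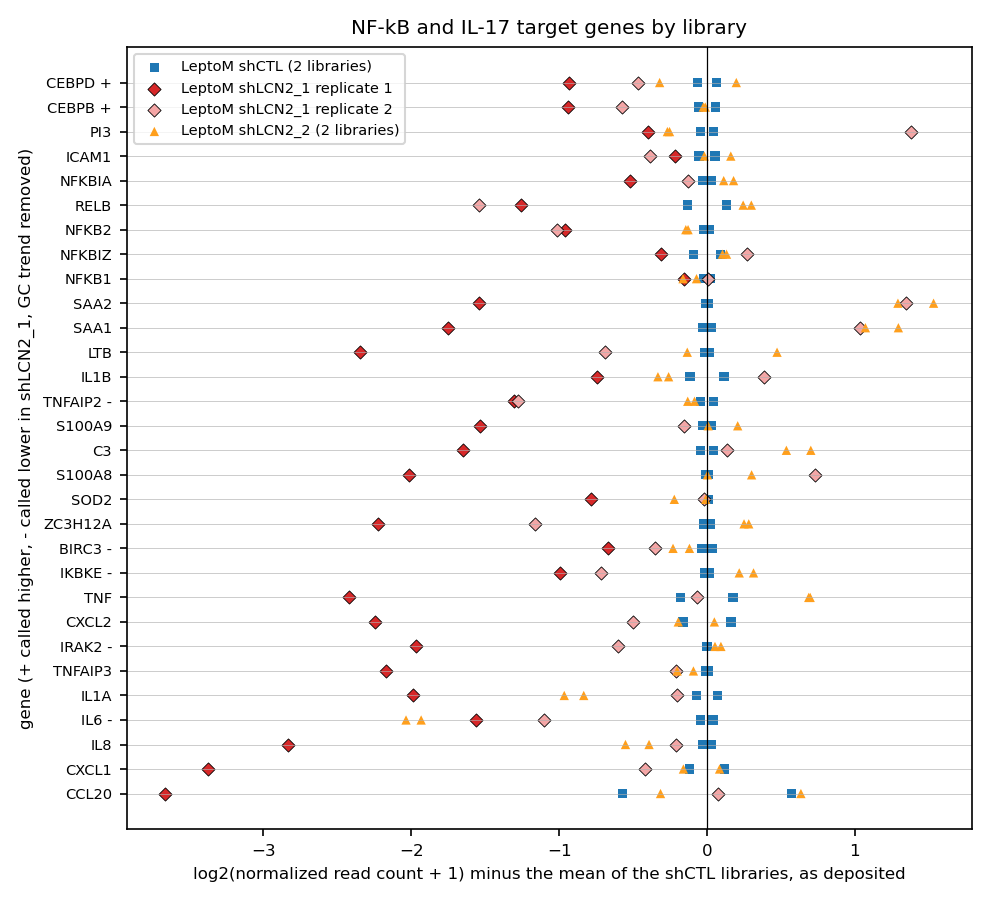
Log2 of normalised read count + 1 minus the control mean, as deposited (horizontal axis), for the 30 tested NF-kB and IL-17 targets, with the 2 hairpin 1 libraries in dark (replicate 1) and light (replicate 2) red. All 30 replicate 1 points lie below both controls, while 7 replicate 2 points lie above both. Over all genes, 44.8% lay below both controls in replicate 1 and 47.5% above both in replicate 2.

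Of 24 tested members of the iron-handling list (4 of 28 were under the minimum), 4 were higher and 1 was lower, with a median of 0.03, beside 11.5% higher, 11.6% lower and a median of 0.02 over all genes. CYBRD1, a ferric reductase, had 1837 and 1868 in control, 3998 and 3114 with hairpin 1 and 4290 and 3845 with hairpin 2. It rose with both hairpins, by 0.73 (SE 0.11, adjusted p = 0.0044) and 1.20 (SE 0.11, adjusted p = 0.000862). SLC40A1, the iron exporter ferroportin, had 816 and 824 in control, 1240 and 1507 with hairpin 1 and 917 and 936 with hairpin 2. The hairpin 1 fold change was 0.57 (SE 0.10, adjusted p = 0.00749), and the groups did not overlap. NCOA4, the receptor that delivers ferritin to lysosomes, was higher with hairpin 1, at 0.35 (SE 0.06, adjusted p = 0.00758), and lower with hairpin 2, at -0.47 (SE 0.06, adjusted p = 0.00249). SLC39A14, an importer of non-transferrin iron and zinc, did likewise, at 0.26 (SE 0.05, adjusted p = 0.00871) and -0.42 (SE 0.05, adjusted p = 0.00165). PCBP1, an iron chaperone for ferritin, was called lower, at -0.19 (SE 0.05, adjusted p = 0.0316).

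The ferritin chains and the transferrin receptor did not pass the test. FTH1 read 126909 and 124026 in control against 118082 and 131586 with hairpin 1, with a fold change of 0.18 (SE 0.07, adjusted p = 0.0943). FTL read 116241 and 109902 in control against 99169 and 81425 with hairpin 1, with 0.06 (SE 0.08, adjusted p = 0.609) and -0.33 as deposited. TFRC, which takes up transferrin-bound iron, read 33336 and 34568 in control against 39859 and 35758 with hairpin 1, with -0.08 (SE 0.06, adjusted p = 0.338). The direction of iron calls moved with the centring, as did that of all genes. When the mean trend was added back, 3 iron genes were higher and 8 lower, beside 934 and 4454 of all 15650 genes. With either shCTL library left out, fewer iron genes were called, and fewer genes of the whole table. CYBRD1 kept the call with any 1 of the 8 libraries left out, SLC40A1, NCOA4 and SLC39A14 lost it without either shCTL library, and PCBP1 lost it without any 1 library of the other 3 groups. SLC39A14 (0.098) was not called with the mean trend added back.

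Of 22 genes for iron-sulfur cluster assembly, 2 were higher and 3 lower, with a median of -0.03, shares close to the 11.5% higher and 11.6% lower over all genes. NUBP2 and NUBP1, partners in the cytosolic assembly scaffold, and NARFL, a later factor of that pathway, were the lower ones. NUBP2 read 2199 and 2139 in control against 462 and 396 with hairpin 1, a fold change of -0.97 (SE 0.11, adjusted p = 0.00199), or -2.34 as deposited. NARFL gave -0.63 (SE 0.09, adjusted p = 0.00356) and NUBP1 -0.30 (SE 0.06, adjusted p = 0.0147), while CIAPIN1, a carrier in the same pathway, was higher at 0.32 (SE 0.06, adjusted p = 0.00807). Nuclear genes of the respiratory chain had 3 higher and 8 lower calls among 27 tested, beside the same all-gene shares. NDUFS7 and NDUFV2, complex I subunits that hold iron-sulfur clusters, fell, with fold changes of -1.42 (SE 0.16, adjusted p = 0.00191) and -0.81 (SE 0.13, adjusted p = 0.00579). NDUFS7 stood at -2.81 as deposited, from 1319 and 1222 in control to 206 and 159 with hairpin 1. NDUFB8 was higher, at 0.48 (SE 0.06, adjusted p = 0.00306). Also lower were NDUFS8 at -0.57, NDUFV1 at -0.40 and SDHA, the flavoprotein of complex II, at -0.34. With hairpin 2 the respiratory chain list had 0 higher and 11 lower calls, with a median of -0.15, beside 12.5% and 11.6% over all genes. The 13 mitochondrially encoded transcripts had a median of 0.08 with hairpin 1, and 0 were called higher or lower with the GC trend removed. As deposited, 5 of them were called higher, as were 2944 of all 15650 genes. NUBP2, NARFL, NDUFS7, NDUFB8, NDUFV1 and SDHA kept the call with any 1 of the 8 libraries left out, NUBP1 and CIAPIN1 lost it without either shCTL library, NDUFV2 lost it without shCTL replicate 2, and NDUFS8 lost it without shCTL replicate 1. CIAPIN1 (0.16) was not called with the mean trend added back.

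Of 40 tested ribosomal protein genes, 21 were called lower with hairpin 1 and 0 higher, beside 11.6% and 11.5% over all genes. Their median was -0.18, 6 of the 40 had a positive fold change, and 18 were lower with and without the GC step, beside 8.66% over all genes. RPLP1, an acidic stalk protein, had 26791 and 27102 in control, 9865 and 8410 with hairpin 1 and 22964 and 23559 with hairpin 2, a fold change of -1.60 (SE 0.14, adjusted p = 0.00135). RPS28 had 8061 and 7749 in control against 2494 and 2193 with hairpin 1, a fold change of -1.29 (SE 0.12, adjusted p = 0.00141). RPL28 had 65012 and 57843 in control against 30666 and 27766 with hairpin 1, a fold change of -0.69 (SE 0.07, adjusted p = 0.00153). In these 3 genes the hairpin 1 libraries were the lowest of the 3 LeptoM groups, and hairpin 2 did not pass the test. RPLP2, another stalk protein, fell, with a fold change of -0.58. With hairpin 2, which shares the control libraries, 29 of 40 were called lower, with a median of -0.30, beside 11.6% over all genes. Ribosomal protein genes have many processed pseudogenes, so their counts depend on how shared reads were treated. The hairpin 1 count of 21 fell with either shCTL library left out, as did the lower count over all genes. The proteasome list had 0 higher and 6 lower calls among 25, beside 11.5% higher and 11.6% lower over all genes, with a median of -0.13. PSMA7, PSMB2, PSMB3 and PSMB4, subunits of the 20S core, fell, with fold changes of -0.41, -0.41, -0.30 and -0.29. With hairpin 2 the proteasome list had 0 higher and 17 lower calls, with a median of -0.25, beside 12.5% and 11.6% over all genes. RPLP1, RPS28, RPL28 and PSMB2 kept the call with any 1 of the 8 libraries left out, RPLP2, PSMA7 and PSMB4 lost it without either shCTL library, and PSMB3 lost it without any 1 library of the other 3 groups.

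Antioxidant genes under NRF2, the factor that answers oxidative and electrophilic stress, had 2 higher and 11 lower calls among 28, with a median of -0.16, beside 11.5% higher and 11.6% lower over all genes and a median of 0.02. SRXN1, given above, fell the most. OSGIN1, an oxidative-stress growth inhibitor, read 1403 and 1378 in control against 378 and 350.2 with hairpin 1, a fold change of -0.90 (SE 0.11, adjusted p = 0.00235). NQO1, a quinone reductase, read 64047 and 64858 in control against 58972 and 48744 with hairpin 1, a fold change of -0.42 (SE 0.09, adjusted p = 0.0143). Both were also lower with hairpin 2, at -0.97 and -0.40. TALDO1 and TKT of the pentose phosphate pathway gave -0.44 and -0.34, and the glutathione-conjugate exporter ABCC1 gave -0.29. With hairpin 2, 16 members were lower and 1 higher, with a median of -0.37, beside 11.6% and 12.5% over all genes. The hairpin 1 count of lower members fell with either shCTL library left out, as did the lower count over all genes. SRXN1 and OSGIN1 kept the call with any 1 of the 8 libraries left out, TALDO1 and NQO1 lost it without either shCTL library, and TKT and ABCC1 lost it without any 1 library of the other 3 groups. The element TGACNNNGC, the core of the antioxidant response element, was in 6 of 20 of these promoters (30%) and in 11.0% of all promoters.

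The ATF4 list, genes for amino acid synthesis and transport, had 4 higher and 10 lower calls among 28 tested, with a median of -0.06, beside 11.5% higher and 11.6% lower over all genes. SLC7A5 and SLC3A2, the 2 chains of the LAT1 amino acid transporter, fell, with fold changes of -0.77 (SE 0.14, adjusted p = 0.00851) and -0.41 (SE 0.08, adjusted p = 0.0139). STC2, a secreted glycoprotein induced by this response, had 6221 and 6143 in control, 3727 and 4104 with hairpin 1 and 2960 and 3189 with hairpin 2, a hairpin 1 fold change of -0.54 (SE 0.07, adjusted p = 0.00282). ASNS, the asparagine synthetase, and PSAT1, of serine synthesis, gave -0.50 and -0.40. VLDLR, a lipoprotein receptor, went the other way, at 0.75 (SE 0.18, adjusted p = 0.024). With hairpin 2 there were 2 higher and 13 lower calls, with a median of -0.36, beside 12.5% and 11.6% over all genes. In hairpin 1 against hairpin 2, 14 members were higher and 3 lower, beside 2470 and 2591 of all 15650 genes. The lower count with hairpin 1 fell with either shCTL library left out, as did that over all genes. STC2 and PSAT1 kept the call with any 1 of the 8 libraries left out, SLC7A5 and SLC3A2 lost it without either shCTL library, ASNS lost it without shCTL replicate 1, and VLDLR lost it without any 1 shCTL or shLCN2_2 library.

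Unfolded protein response genes had 3 higher and 4 lower calls among 21, close to the all-gene shares of 11.5% and 11.6%. MANF, a secreted chaperone-like factor, read 1394 and 1390 in control against 2037 and 2141 with hairpin 1, a fold change of 0.58 (SE 0.06, adjusted p = 0.00181), and was not called with hairpin 2, at -0.03 (SE 0.06, adjusted p = 0.76). XBP1, a transcription factor of the response, fell, with a fold change of -0.34 (SE 0.05, adjusted p = 0.00495), and its upstream kinase ERN1 gave -0.38 (SE 0.11, adjusted p = 0.0377). Heat shock genes had 2 higher and 1 lower calls among 16, with HSPB1 at -0.58 (SE 0.12, adjusted p = 0.0131), or -1.82 as deposited. With hairpin 2 the heat shock list had 0 higher and 12 lower calls, with a median of -0.28, beside 12.5% and 11.6% over all genes. Of 8 tested metallothionein and zinc genes, 2 were lower and 1 was higher. MT2A, a metal-binding protein, had 3199 and 2862 in control, 1027 and 1187 with hairpin 1 and 4455 and 5149 with hairpin 2. It was lower with hairpin 1, at -1.08 (SE 0.15, adjusted p = 0.00324), and higher with hairpin 2, at 0.64 (SE 0.15, adjusted p = 0.0188). MT1X did the same at -0.61 and 0.72, though metallothionein genes are near-identical copies and their counts are uncertain. SLC39A10, a zinc importer, was higher at 0.53 (SE 0.06, adjusted p = 0.00238). MANF, MT2A and SLC39A10 kept the call with any 1 of the 8 libraries left out, XBP1 and HSPB1 lost it without either shCTL library, and ERN1 and MT1X lost it without any 1 library of the other 3 groups.

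Replication and mitosis genes had 3 higher and 13 lower calls among 38, with a median of -0.17, beside 11.5% higher and 11.6% lower over all genes. With and without the GC step there were 0 higher and 5 lower, beside 6.17% and 8.66%. With hairpin 2, which shares the control libraries, 0 members were called higher and 15 lower, with a median of -0.21. Over all genes hairpin 2 had 12.5% higher and 11.6% lower. UHRF1, which brings maintenance DNA methylation to replicating DNA, had 3166 and 3111 in control, 1036 and 1111 with hairpin 1 and 2857 and 2959 with hairpin 2. This 1 gene was called lower with hairpin 1 only, at -1.55 (SE 0.14, adjusted p = 0.00141), against -0.11 (SE 0.14, adjusted p = 0.618) for hairpin 2. The hairpins differed by -1.44 (SE 0.14, adjusted p = 0.000728). MCM5, a subunit of the replicative helicase, had 7012 and 6952 in control against 2893 and 2946 with hairpin 1, a fold change of -0.74 (SE 0.06, adjusted p = 0.0013). MCM2, CDC45 and the mitotic kinase PLK1 gave -0.22, -0.36 and -0.28. The lower count with hairpin 1 fell when either shCTL library was left out, and so did that over all genes. Of 22 p53 targets, 5 were higher and 2 lower, beside the same shares over all genes. BTG2, an antiproliferative factor, and SESN1, a stress-induced inhibitor of mTORC1, rose by 0.74 (SE 0.16, adjusted p = 0.0166) and 0.50 (SE 0.09, adjusted p = 0.00857), and TP53INP1, CCNG1 and RRM2B by 0.79, 0.49 and 0.30. DDB2, of nucleotide excision repair, fell, with a fold change of -0.28. UHRF1 and MCM5 kept the call with any 1 of the 8 libraries left out, MCM2, PLK1, BTG2 and SESN1 lost it without either shCTL library, CDC45 and TP53INP1 lost it without any 1 shCTL or shLCN2_2 library, CCNG1 and DDB2 lost it without any 1 library of the other 3 groups, and RRM2B lost it without shCTL replicate 2. TP53INP1 (0.62), CCNG1 (0.32) and RRM2B (0.14) were not called with the mean trend added back. TP53INP1 (0.74) was not called with GC and length removed together.

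MAPK output genes had 1 higher and 3 lower calls among 24, against 11.5% and 11.6% of all genes. PHLDA1, induced by growth factors, read 4260 and 4267 in control against 2467 and 3175 with hairpin 1, a fold change of -0.83 (SE 0.11, adjusted p = 0.00263). ETV5, an ETS factor downstream of ERK, was the 1 called higher, at 0.45 (SE 0.06, adjusted p = 0.00255). EPHA4 and MYC fell, with fold changes of -0.65 and -0.17. The list of the EGFR family and its ligands also held other receptors, and had 2 higher and 0 lower calls among 14. The 2 were AXL, given below, and MET, the receptor of hepatocyte growth factor, at 0.20 (SE 0.05, adjusted p = 0.0224). Neither is a member of the EGFR family or a ligand of it. EGFR itself was at 48887 and 50016 in control against 31693 and 50693 with hairpin 1, where replicate 1 was below control and replicate 2 was level with it, and its fold change was -0.29 (SE 0.18, adjusted p = 0.297). PHLDA1 and ETV5 kept the call with any 1 of the 8 libraries left out, EPHA4 and MET lost it without any 1 shCTL or shLCN2_2 library, and MYC lost it without any 1 library of the other 3 groups. MET (0.039) was not called with the mean trend added back.

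Lipid genes differed between the 2 hairpin 1 libraries. Of 25 cholesterol synthesis genes, 4 were higher and 1 lower, with a median of 0.37, beside 11.5% higher and 11.6% lower over all genes. Replicate 1 was the lower library in 2 of the 25, beside 7118 of 15650 over all genes, with a median log2 ratio of replicate 1 to replicate 2 of 0.78. With replicate 1 alone the median fold change was 0.70, and with replicate 2 alone it was -0.03. CYP51A1, the lanosterol demethylase, was the member called lower. It read 255 and 225 in control against 134 and 88.1 with hairpin 1, a fold change of -1.37 (SE 0.23, adjusted p = 0.00695). SC5D, a late enzyme of the pathway, was higher at 0.51 (SE 0.14, adjusted p = 0.0343). Fatty acid synthesis and lipid storage had 6 higher and 2 lower calls among 26. ACSL4, which activates polyunsaturated fatty acids, had 3121 and 3283 in control against 6101 and 5628 with hairpin 1, a fold change of 0.62 (SE 0.05, adjusted p = 0.00134), and was higher with hairpin 2 too, at 0.36 (SE 0.05, adjusted p = 0.00414). ACACA, the acetyl-CoA carboxylase, rose by 0.43 (SE 0.08, adjusted p = 0.00968). FASN, the fatty acid synthase, read 32952 and 30595 in control against 8525 and 4962 with hairpin 1, and its fold change was -0.84 (SE 0.19, adjusted p = 0.0174) with the GC trend removed but -2.29 as deposited. ACSL4 kept the call with any 1 of the 8 libraries left out, CYP51A1 lost it without shCTL replicate 1, SC5D lost it without any 1 library of the other 3 groups, and ACACA and FASN lost it without either shCTL library. SC5D (0.34) was not called with the mean trend added back.

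Mesenchymal genes had 4 higher and 0 lower calls among 19 tested (8 of 27 were under the minimum), beside 11.5% higher and 11.6% lower over all genes, although the median was -0.23. VIM, the intermediate filament of mesenchymal cells, had 11.9 and 21.3 in control, 55.6 and 62.8 with hairpin 1 and 24.9 and 21.6 with hairpin 2. Its hairpin 1 libraries were the highest of the LeptoM groups, with a fold change of 1.93 (SE 0.28, adjusted p = 0.00399). AXL, a receptor tyrosine kinase, had 67.9 and 104 in control against 129 and 237 with hairpin 1, a fold change of 1.58 (SE 0.31, adjusted p = 0.0115). TAGLN, an actin-binding protein of smooth muscle, had 33.9 and 21.3 in control against 40.9 and 115 with hairpin 1, a fold change of 1.86 (SE 0.48, adjusted p = 0.0288). LOX, the collagen cross-linking oxidase, gave 1.35 (SE 0.30, adjusted p = 0.0186). All 4 were called higher with hairpin 1 and not with hairpin 2. Across the list, 16 of 19 members were lower in replicate 1 than in replicate 2, beside 7118 of 15650 over all genes, the median fold change being -0.65 with replicate 1 alone and 0.52 with replicate 2 alone. VIM kept the call with any 1 of the 8 libraries left out, AXL lost it without shCTL replicate 1, TAGLN lost it without any 1 library of the other 3 groups, and LOX lost it without either shCTL library.

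Epithelial junction and keratin genes had 4 higher and 6 lower calls among 35, beside 11.5% higher and 11.6% lower over all genes. The simple keratins KRT8, KRT19 and KRT7 fell, with fold changes of -0.50 (SE 0.07, adjusted p = 0.00343), -0.44 (SE 0.08, adjusted p = 0.00896) and -0.43 (SE 0.08, adjusted p = 0.0103), and as deposited stood at -1.03, -1.29 and -1.11. KRT8 read 308399 and 291451 in control, 147277 and 145379 with hairpin 1 and 316695 and 332866 with hairpin 2. CLDN4, a tight junction protein, fell, with a fold change of -0.62 (SE 0.15, adjusted p = 0.0245). CDH1, which encodes E-cadherin, and DSP, which encodes desmoplakin, were higher, at 0.29 (SE 0.05, adjusted p = 0.0074) and 0.19 (SE 0.04, adjusted p = 0.0175), and both were higher with hairpin 2 too, at 0.49 and 0.34. Targets of TGF-beta and YAP had 6 higher and 2 lower calls among 24, with THBS1 at -0.43 and the TGF-beta feedback gene SKIL at 0.30. KRT8 kept the call with any 1 of the 8 libraries left out, KRT19, KRT7, CDH1 and DSP lost it without either shCTL library, CLDN4 and SKIL lost it without any 1 shCTL or shLCN2_2 library, and THBS1 lost it without shCTL replicate 1. CDH1 (0.12), DSP (0.019) and SKIL (0.13) were not called with the mean trend added back. DSP (0.13) was not called with GC and length removed together.

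Antigen presentation genes had 5 higher and 4 lower calls among 18, where 11.5% of all genes were called higher and 11.6% lower. CD74, the invariant chain of MHC class II, had 23.9 and 26.4 in control, 49.3 and 59.5 with hairpin 1 and 164 and 161 with hairpin 2. It was higher with both hairpins, at 1.84 (SE 0.23, adjusted p = 0.00258) and 2.55 (SE 0.23, adjusted p = 0.000877). PSMB10, an immunoproteasome subunit, had 393 and 403 in control, 81.8 and 73.8 with hairpin 1 and 476 and 470.2 with hairpin 2, and was lower with hairpin 1, at -1.30 (SE 0.13, adjusted p = 0.0016), the difference between hairpins being -1.38 (SE 0.13, adjusted p = 0.00061). The peptide transporter TAP1 and the class I activator NLRC5 gave -0.40 and -0.32. Complement genes had 2 higher and 0 lower calls among 15. SERPING1, the C1 inhibitor, had 7 and 1 reads in control and 17 and 30 with hairpin 1, a ratio of 6.55 (95% counting interval 3.06 to 16.0). Hypoxia and glycolysis genes had 9 higher and 7 lower calls among 35, beside the same all-gene shares. EGLN3 and KDM3A, oxygen-dependent hydroxylase and demethylase that HIF induces, were higher at 0.63 (SE 0.10, adjusted p = 0.00454) and 0.60 (SE 0.09, adjusted p = 0.00438), while VEGFA and the phosphofructokinase PFKP were lower at -0.44 (SE 0.07, adjusted p = 0.00641) and -0.67 (SE 0.15, adjusted p = 0.02). CD74, PSMB10 and EGLN3 kept the call with any 1 of the 8 libraries left out, TAP1 and KDM3A lost it without shCTL replicate 1, NLRC5 lost it without any 1 library of the other 3 groups, SERPING1 lost it without shCTL replicate 2, and VEGFA and PFKP lost it without either shCTL library.

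Histone genes had 2 higher and 2 lower calls among 22, close to the all-gene shares of 11.5% and 11.6%. HIST1H2BK, an H2B gene with polyadenylated transcripts, had 2947 and 2856 in control against 3800 and 3695 with hairpin 1, a fold change of 1.31 (SE 0.05, adjusted p = 0.000144) with the GC trend removed and 0.37 as deposited. H1F0, the linker histone H1.0, fell, with a fold change of -0.33 (SE 0.04, adjusted p = 0.00263). Airway secretory and mucin genes had 4 higher and 2 lower calls among 18 tested, where WFDC2, the secreted protein HE4, rose by 1.04 (SE 0.13, adjusted p = 0.00233) and the adhesion molecules CEACAM1 and CEACAM6 fell, with fold changes of -0.34 and -0.32. Chromatin modifiers with long transcripts had 2 higher and 4 lower calls among 25, beside the same shares. KMT2D and ARID1B fell, with fold changes of -0.35 and -0.30, and SETD2 and BPTF rose by 0.25 and 0.22. Lung alveolar genes had 1 higher and 1 lower call among 9, and intergenic and nuclear RNAs had 1 and 0 among 13. HIST1H2BK, H1F0 and WFDC2 kept the call with any 1 of the 8 libraries left out, and CEACAM1, CEACAM6, KMT2D, ARID1B, SETD2 and BPTF lost it without either shCTL library. SETD2 (0.081) and BPTF (0.053) were not called with the mean trend added back.

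Markers of the labelled cell type were present. All 11 epithelial lung cancer markers were listed. Their summed level as deposited was 8.51e+05 to 8.93e+05 in control libraries and 5.17e+05 to 5.36e+05 with hairpin 1, a sum dominated by keratins. The sum still carries the GC trend. With the trend removed, 2 of the 9 tested were called higher and 3 lower, beside 11.5% and 11.6% over all genes. Their median was 0.03, against -0.30 as deposited. The lung lineage markers NKX2-1 and SFTPB were at most 8.39 and 2.75 in the 4 libraries compared. Of 6 macrophage markers 5 were listed, with sums of 686 to 716 in control and 275 to 415 with hairpin 1, also as deposited. CD14, a lipopolysaccharide co-receptor, was the member of the wider macrophage and granulocyte list called lower, at -1.27 (SE 0.23, adjusted p = 0.00814). PTPRC, the pan-leukocyte CD45, read 16.5 and 16.3 in control and 47.2 and 29.7 with hairpin 1. Meningeal markers were near 0, with 2 of 5 listed and sums of 0 to 8.26 in control and 2.10 to 4.41 with hairpin 1, and fibroblast markers, with 1 of 2 listed, summed to at most 4.07. The endothelial cadherin CDH5 read 1053 and 1018 in control against 500.3 and 312 with hairpin 1, a fold change of -1.12 (SE 0.19, adjusted p = 0.00641). FOLR1, a folate receptor on the choroid plexus list that lung adenocarcinoma also expresses, was higher at 1.16 (SE 0.20, adjusted p = 0.00698). CD14 and CDH5 lost the call without either shCTL library, and FOLR1 lost it without shCTL replicate 2.

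The 2 hairpins could be compared directly, since both were fitted in the same model. They differed in 5061 genes (32.3%), 2470 higher and 2591 lower in hairpin 1. Of the genes called with and without the GC step against control, 331 of 965 higher and 906 of 1355 lower also differed from hairpin 2 in that direction, in comparisons that share the hairpin 1 libraries. IGFBP4, a secreted binder of insulin-like growth factors, read 1181 and 1122 in control, 2379 and 1313 with hairpin 1 and 1125 and 1013 with hairpin 2, a difference between hairpins of 2.01 (SE 0.21, adjusted p = 0.000858). As deposited that difference was 0.73, and the hairpin 1 fold change was 0.62 (adjusted p = 0.0577) against 1.73 (SE 0.21, adjusted p = 0.00255) with the GC trend removed. RTN4RL1, a receptor related to the Nogo receptor, read 202 and 185 in control, 31.5 and 37.4 with hairpin 1 and 334 and 374 with hairpin 2, with a difference of -2.20 (SE 0.21, adjusted p = 0.000655). CAPS, a calcium-binding phosphoprotein, gave -2.19 (SE 0.25, adjusted p = 0.00112). For TMEM158, HTRA3 and ARTN the direction against control depended on the GC step, with fold changes of 1.58, 1.02 and 1.26 after it and -0.03, -0.20 and -0.66 as deposited. IGFBP4, RTN4RL1 and TMEM158 kept the call with any 1 of the 8 libraries left out, and CAPS, HTRA3 and ARTN lost it without either shCTL library.

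The same hairpin in MDA231 LeptoM cells, where LCN2 was near the detection limit, gave 748 higher (5.2%) and 801 lower (5.57%) genes of 14387. Its GC trend ran the other way, with a rho of 0.515 between the fold change and GC before the step. Of 13392 genes tested in both lines, 170 were higher in both, which was 10.7% of those higher in PC9 and 24.5% of those higher in MDA231. Lower in both were 207, 12.1% and 28.2%, while 37 genes higher in PC9 were lower in MDA231 and 53 lower in PC9 were higher there. POLR2A, the largest subunit of RNA polymerase II, was lower in both lines. In PC9 it read 17020 and 16380 in control, 7744 and 7496 with hairpin 1 and 16519 and 16268 with hairpin 2, a fold change of -0.81 (SE 0.04, adjusted p = 0.000559), and in MDA231 its fold change was -0.82 (SE 0.07, adjusted p = 0.000571). TMED9, a cargo receptor of the early secretory pathway, gave -1.20 (SE 0.08, adjusted p = 0.00119) and -1.06 (SE 0.06, adjusted p = 0.000134). TTLL12, a tubulin tyrosine ligase-like protein, gave -1.16 (SE 0.09, adjusted p = 0.00119) and -0.83 (SE 0.14, adjusted p = 0.0106).

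Also lower in both lines were SELT, with -1.10 in PC9 and -1.02 in MDA231, FAM222B, with -0.94 and -1.17, and PLBD2, a lysosomal phospholipase-like protein, with -0.89 and -0.85. SELT, TMED9, TTLL12 and POLR2A did not pass the test with hairpin 2 in PC9 and FAM222B was higher with it, at 0.57 (SE 0.12, adjusted p = 0.0134). Higher in both lines were PIK3AP1, an adaptor of PI3-kinase, with 1.46 in PC9 and 1.14 in MDA231, RASSF2, a Ras-association protein, with 1.84 and 1.97, and FCGRT, with 2.76 and 1.08. SCUBE3 gave 1.28 and 1.47, and RIMS3, a presynaptic protein, gave 1.18 and 1.49. MMP9, a gelatinase, met the same rule, but its PC9 libraries overlapped as deposited, at 26.6 and 21.3 in control against 30.4 and 22.0 with hairpin 1. POLR2A, TMED9, TTLL12, SELT, FAM222B, PIK3AP1, RASSF2, FCGRT and RIMS3 kept the call with any 1 of the 8 libraries left out, PLBD2 and SCUBE3 lost it without shCTL replicate 1, and MMP9 lost it without either shCTL library.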

How the data were processed

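RNA was polyA-selected and made into stranded libraries, per the labels' protocols. The deposited values are a signal: each is a whole number of reads times 1 constant per library, that is, a count divided by a size factor, with constants set separately in each table. Per the submitters' processing notes HTSeq 0.5.3, DESeq2 1.22.1 and the build hg19 were used, with no roles given; the aligner, annotation and strand setting are not given in the sources used here. Rows that name no gene were left out (24.4 to 36.5% of reads). Whole reads were recovered for 100% of values (within 0.001).

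Per library, a lowess trend (span 0.3) on GC content of the deviation of log2(value + 1) from the gene means was subtracted. GC came from GENCODE v29 transcripts matched on gene ID (15275 of 15650 genes, 97.6%), and the other 375 were left as deposited. limma 3.58.1 with a trended prior was fitted to all 4 groups of PC9 (4 residual degrees of freedom, prior 3.61), and separately to MDA231, with Benjamini-Hochberg adjustment and a threshold of 0.05. The fit was also run on simulated counts in which all libraries had the same dispersion. The real hairpin 1 libraries differed more from each other than the control libraries did, so that run cannot bear on the calls. edgeR 4.0.16 and DESeq2 1.42.0 on the recovered reads, other filters, other centrings and left-out libraries were alternatives.

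Named genes were LCN2, the 12 largest changes each way and the 8 most abundant with a log2 change of at least 1 among genes called with and without the GC step, up to 6 members per list so called, and 6 each way by hairpin difference and by both cell lines. The largest changes and the most abundant genes also needed a mean of at least 50 in the higher group, no overlap between the groups, a GC value and a symbol. Both sets left out Y-linked, antisense and readthrough genes. Other genes given with values were chosen after their values were seen. The comparison, the 35 lists and their members were chosen with earlier results of these data known. Promoter sequences are from RefSeq. Same-numbered libraries of the 2 groups were not treated as pairs in the main fit. The correlation of their deviations across genes was 0.0318. It cannot show that they were unpaired, because the hairpin 1 libraries differed far more from each other than the control libraries did. Some members of the lists and of the named genes are not reported here.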

Additional observations from a re-analysis of the deposited data

Results flagged for a closer look

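The effect of hairpin 1 differed between PC9 and MDA231 for 14 of the 24 named genes that could be compared, by a test of the difference of the 2 limma fold changes over their joint standard error, Benjamini-Hochberg adjusted over the genes tested in both tables. The 2 tables were normalized separately, so these are differences of within-table fold changes, and no explanation was tested. Over all 13392 genes tested in both tables, 17.0% differed. Of the 14, 13 had been chosen for their large fold change in PC9, so their differences are a description. CHST4 was left out, since neither MDA231 group compared had a mean of at least 10. Of the genes raised in PC9, the difference PC9 minus MDA231 was 3.02 (SE 0.72, adjusted p = 0.0139) for METTL7B, 2.42 (SE 0.23, adjusted p = 0.00075) for ATP8B2 and 2.30 (SE 0.26, adjusted p = 0.000571) for DISC1. It was 2.20 (SE 0.44, adjusted p = 0.00576) for UNC13A, 2.15 (SE 0.56, adjusted p = 0.0228) for CCDC3 and 1.68 (SE 0.41, adjusted p = 0.0122) for FCGRT.

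Of the genes lowered in PC9, the difference was -3.44 (SE 0.57, adjusted p = 0.00153) for MRPS24, -2.70 (SE 0.63, adjusted p = 0.0137) for RNASEK, -2.52 (SE 0.34, adjusted p = 0.000594) for SRXN1 and -2.38 (SE 0.47, adjusted p = 0.0104) for H2AFJ. It was -2.04 (SE 0.36, adjusted p = 0.00295) for C11orf83, -1.88 (SE 0.45, adjusted p = 0.0129) for ATP6V0C and -1.30 (SE 0.28, adjusted p = 0.0064) for COL4A2. MMP9, which the rule took for its change in both lines, differed the other way, at -1.49 (SE 0.37, adjusted p = 0.0137), with a larger fold change in MDA231.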

How the results depend on the processing

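Without the GC step, PC9 calls were 2944 higher, 3966 lower and 8529 between hairpins, and MDA231 calls 121 against 1549. Fitting only the groups compared gave 423, 494, 2051 and 3925. edgeR gave 4071, 3623, 9175 and 297 without the GC step and 2630, 1216, 5366 and 2701 with a GC offset, and DESeq2 without the GC step gave 2887, 3716, 8071 and 488. A constant prior gave 878 MDA231 calls, and the mean trend added back, chosen after seeing the data, gave 934 higher and 4454 lower. With a replicate block there were 1669 higher and 1675 lower PC9 calls with the GC step, and 2769, 3865, 8324 and 47 (MDA231) without it. Leaving out 1 library gave 398 to 3480 higher, 400 to 3827 lower, 2010 to 8213 between hairpins, 257 to 3862 in MDA231, and -3.48 to -2.45 for LCN2. Directions turned for ARTN (-0.59 DESeq2, -0.54 edgeR, -0.66 limma with or without the block), HTRA3 (-0.17, -0.11, -0.20) and TMEM158 (-0.029 DESeq2, -0.034 limma), all without the GC step. The cause was not tested. With 2 libraries a group, and 82 called genes among the 375 without a GC value, calls near the threshold carry little precision.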
